A study of Mus musculus with 6 samples.

Results

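Transcripts that mark the cells of blood vessels and their surroundings were measured in RNA from sorted mouse cortical astrocytes. The genes were 32 markers taken by symbol, in 3 groups: 12 endothelial markers, 11 markers of pericytes and smooth muscle (mural cells) and 9 fibroblast markers. All 32 were found among the 24421 genes of the deposited table. Levels in 3 libraries from mice given clozapine-N-oxide (CNO), numbered CNO 1 to CNO 3, were compared with those in 3 libraries from mice given saline, numbered saline 3 to saline 5. All animals were CD51-Flp mice injected after birth with the virus AAV-GFAP-FSF-hM3D-mCherry, so both groups carried hM3D, an engineered receptor that responds to CNO, together with the red fluorescent protein mCherry. CD51 is the integrin alpha V protein, and the virus name gives GFAP as the promoter that drives the receptor. CNO or saline was injected 2 times a day from postnatal day 7, and mCherry+ cells were sorted from cortex on postnatal day 21. The labels do not say how many animals made up a library, and each p-value here reflects the library-to-library spread alone, which may be technical. No group without the receptor was analysed here, so an action of CNO through the receptor and an action of CNO by itself cannot be told apart.

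Endothelial cells line the vessels of the brain and form the blood-brain barrier with tight junctions and membrane transporters. Pericytes and smooth muscle cells wrap the vessels, hold on to them through PDGF receptor beta and, in arterioles, contract. Fibroblasts lie in the meninges and along larger vessels, where they make collagens and small proteoglycans. Astrocyte endfeet touch these vessels, but astrocytes are not the usual source of these transcripts. In sorted astrocytes such markers can be read as a measure of RNA from other cells, but the source of these reads was not tested. Fewer cells of a type and less RNA per cell cannot be told apart in these libraries, and other readings were not tested either.

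The libraries held 3908076, 19224186 and 17102657 reads in CNO 1 to CNO 3, against 17389282, 12010901 and 19052161 reads in saline 3 to saline 5. Levels are given as normalized counts, that is, reads divided by a size factor per library, so that a single read equalled 4.23 normalized counts in the shallow CNO 1 library but 0.503 to 0.970 elsewhere. A gene with 0 reads could therefore hold up to 12.7 normalized counts in CNO 1, 2.22 in CNO 2 and 2.91 in CNO 3 by a floor of 3 reads, against 1.51 to 2.40 in the saline libraries. These floors cover counting error only, because the reads carry no molecular identifiers. The 12 astrocyte markers made up 2.25% ± 1.09 of CNO reads and 2.29% ± 0.441 of saline reads (SD, n = 3 each). The 12 oligodendrocyte markers made up 18.2% ± 6.71 of CNO reads and 6.43% ± 1.30 of saline reads, which bears on every share of reads given here, and their part in the marker results was not tested.

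No marker passed the test. Of the 32 markers, 29 had a mean of at least 10 normalized counts and were tested with limma on log2(normalized count + 1), with Benjamini-Hochberg adjustment at 0.05 over all 13028 genes tested. Of these, 0 were called higher and 0 lower, against 0.0154% of all tested genes called higher and 0% called lower. At an unadjusted p under 0.05, 0 markers were higher, against 2.28% of all tested genes, and 2 were lower, Esam and Notch3, against 7.25% of all tested genes. The CNO and saline libraries did not overlap for 0 tested markers higher in CNO, against 4.57% of all tested genes, and for the same 2 markers lower in CNO, against 12.5% of all tested genes. On whole reads, edgeR's quasi-likelihood test called 0 markers, against 0% of all genes, and DESeq2 called 0, against 1.91% of all genes, although DESeq2 gave no adjusted p for 7 of the 29. The median log2 fold change was -0.96 over the tested markers and -0.89 over all tested genes. It was -0.86 for the endothelial, -0.93 for the mural and -1.12 for the fibroblast markers, and these signs differed between methods: with edgeR, which models counts in place of a mean of logs, the medians were 0.39, 0.23 and -0.02, beside -0.11 for all tested genes, and with DESeq2 they were 0.50, 0.29 and 0.14, beside 0.0044. With limma and TMM scaling the medians were -0.87, -1.02 and -1.09, and with limma and quantile scaling 0.63, 0.58 and -0.08. The intervals were wide, with a median width of 8.83 log2 units over the 29 markers.

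**Figure D1:**
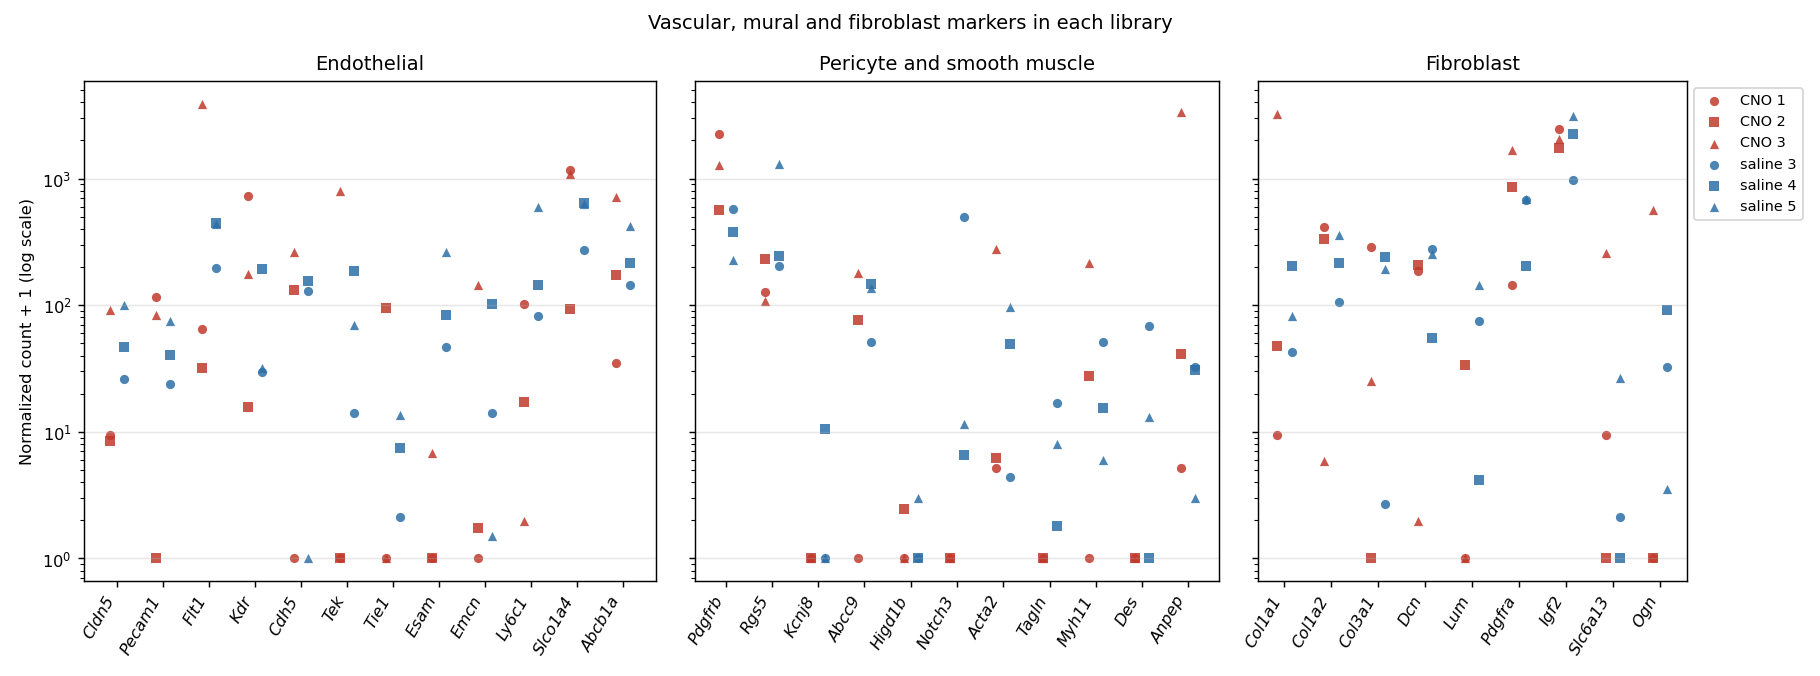
Normalized count + 1 on a log scale for each of the 32 markers, with CNO libraries in red left of saline libraries in blue and 1 symbol for each library; points at the bottom are libraries with 0 reads. Flt1, Anpep and Col1a1 reach 3895, 3331 and 3206 in CNO 3 alone, and Igf2 lies within 970 and 3107 in all 6 libraries.

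Among the endothelial markers, 4 encode receptor tyrosine kinases that drive vessel growth and stability: Flt1 and Kdr, which bind VEGF, Tek, the angiopoietin receptor Tie2, and Tie1, its partner. The same 4 genes, usually found together in endothelial cells, did not share 1 library of highest level. By normalized count it was CNO 3 for Flt1 and Tek, CNO 1 for Kdr and CNO 2 for Tie1. Their promoters are shown as a description, and the sequences were not tested against the levels. The sequences are the 250 bases before the RefSeq start in GRCm38.p6, from chr5:147726012-147726261 on the minus strand, chr5:75978456-75978705 on the minus strand, chr4:94739039-94739288 on the plus strand and chr4:118489850-118490099 on the minus strand, with the letters AGGAAG or their reverse complement in capitals. AGGAAG is 1 form of GGAA, the shorter core recognised by ETS transcription factors, and other forms of GGAA are not marked.
Flt1: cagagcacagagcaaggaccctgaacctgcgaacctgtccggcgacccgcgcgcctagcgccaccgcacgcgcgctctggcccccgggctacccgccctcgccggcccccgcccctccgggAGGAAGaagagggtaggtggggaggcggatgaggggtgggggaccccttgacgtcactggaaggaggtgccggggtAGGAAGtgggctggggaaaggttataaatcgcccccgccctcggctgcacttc
Kdr: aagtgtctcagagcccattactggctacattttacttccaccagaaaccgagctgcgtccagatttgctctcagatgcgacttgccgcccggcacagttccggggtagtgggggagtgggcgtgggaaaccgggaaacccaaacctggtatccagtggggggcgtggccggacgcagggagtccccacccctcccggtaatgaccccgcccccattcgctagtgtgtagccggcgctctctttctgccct
Tek: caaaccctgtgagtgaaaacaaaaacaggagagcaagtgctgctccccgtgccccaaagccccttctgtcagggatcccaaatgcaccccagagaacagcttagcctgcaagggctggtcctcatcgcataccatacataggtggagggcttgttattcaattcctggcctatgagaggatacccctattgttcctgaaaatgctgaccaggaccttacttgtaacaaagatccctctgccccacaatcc
Tie1: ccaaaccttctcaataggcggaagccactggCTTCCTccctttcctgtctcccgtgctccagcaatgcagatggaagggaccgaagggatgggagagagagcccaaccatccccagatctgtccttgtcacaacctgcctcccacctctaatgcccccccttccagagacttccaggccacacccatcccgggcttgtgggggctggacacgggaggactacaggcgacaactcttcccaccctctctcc

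The 6 letters AGGAAG, searched on both strands, stood 2 times in the Flt1 window, 1 time in that of Tie1 and 0 times in those of Kdr and Tek. They were present in 29.5% of 32851 promoters in the same table. Of the 22 markers with a promoter there, 7 held the letters in at least 1 window, which were 6 of 9 endothelial, 0 of 7 mural and 1 of 6 fibroblast markers. The 29.5% is per promoter, whereas Ly6c1 and Igf2, both counted here, had more than 1 window. The Abcb1a window, also counted, ends at chr5:8567090, far before the GENCODE start of that gene at 8660077. The Tie1 window, chr4:118489850-118490099 on the minus strand, lies mostly inside that gene, whose GENCODE start is 118490061. A match describes the letters and shows no binding, and a window with 0 matches can still hold GGAA in another form, as those of Kdr and Tek do.

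Flt1 had 63.4, 31.1 and 3895 normalized counts in CNO 1 to CNO 3, against 197, 446 and 434 in saline 3 to saline 5. CNO 3 lay far above every saline library, while CNO 1 and CNO 2 lay below all 3. Those values rest on 15, 42 and 4015 reads, and the exact Poisson intervals of the CNO 2 and CNO 3 reads, 30.3 to 56.8 and 3892 to 4141, were far apart. The fold change on the log2 scale was -0.75 (95% interval -4.28 to 2.78, limma adjusted p = 0.866). The ratio of the means was 3.70, and it was 0.132 without CNO 3, so that library alone sets which group has the higher mean.

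Tek followed the same library, with 0, 0 and 791 normalized counts in CNO 1 to CNO 3, against 13.04, 185 and 68.9 in saline 3 to saline 5. Every CNO 3 read of Tek, 815 in all, thus stood beside 0 reads in the other CNO libraries. Kdr was instead highest in CNO 1, with 727, 14.8 and 177 normalized counts in CNO 1 to CNO 3, against 28.9, 191 and 30.7 in saline 3 to saline 5. Tie1 was found in CNO 2 alone among the CNO libraries, with 0, 94.0 and 0 normalized counts, against 1.13, 6.40 and 12.6 in the saline libraries. The 4 receptors overlapped between groups, with log2 fold changes of -2.62 for Tek, 1.16 for Kdr and -0.39 for Tie1 and limma adjusted p of at least 0.724. In the saline libraries each of the 4 had at least 2 reads, so reads of all 4 were seen together there. The 2 reads of Tie1 in saline 3 lay under the floor of 3 reads.

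Esam, a cell adhesion molecule of endothelial junctions, was the marker with the smallest p. It had 0, 0 and 5.82 normalized counts in CNO 1 to CNO 3, against 45.4, 82.4 and 264 in saline 3 to saline 5. The highest CNO library thus lay below the lowest saline library. The log2 fold change was -5.73 ± 1.97 (SE; unadjusted p = 0.0139, limma adjusted p = 0.488). Over 15 alternatives the log2 fold change stayed between -6.66 and -2.85, and the adjusted p ran from 0.0705, by DESeq2, to 0.866. In CNO 1 a level of up to 12.7 normalized counts could still give 0 reads by the floor used here.

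Ly6c1, a surface protein of brain endothelium that monocytes also carry, had 101, 16.3 and 0.970 normalized counts in CNO 1 to CNO 3, against 80.5, 142 and 596 in saline 3 to saline 5. CNO 1 lay within the saline range and the other CNO libraries lay below it. The log2 fold change was -3.66 (95% interval -8.00 to 0.69, limma adjusted p = 0.565). In CNO 3, the CNO library with the most Flt1, Ly6c1 had 1 read and Esam 6.

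Both transporters of the blood-brain barrier among the markers were detected in every library. Slco1a4, an organic anion transporter, had 1158, 92.5 and 1095 normalized counts in CNO 1 to CNO 3, against 273, 638 and 623 in saline 3 to saline 5. CNO 1 and CNO 3 lay above the saline libraries and CNO 2 below them, and the log2 fold change was 0.04 (95% interval -2.29 to 2.36, limma adjusted p = 0.993). Abcb1a, the efflux pump P-glycoprotein, had 33.8, 173 and 713 normalized counts in CNO 1 to CNO 3, against 142, 213 and 425 in saline 3 to saline 5, and its groups overlapped. The other endothelial markers, Cldn5, Pecam1, Cdh5 and Emcn, overlapped between groups as well, with levels of 0 to 263 normalized counts in CNO libraries and 0 to 154 in saline libraries and log2 fold changes of -1.35 to 0.26. Cdh5, the VE-cadherin of endothelial junctions, had 0 reads in CNO 1 and also in saline 5.

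Among the mural markers with a log2 fold change above 0, the receptor Pdgfrb had the smallest limma p. It encodes PDGF receptor beta, by which pericytes are recruited to vessels. Pdgfrb had 2261, 559 and 1290 normalized counts in CNO 1 to CNO 3, against 571, 378 and 227 in saline 3 to saline 5. CNO 2 lay just below the highest saline library, so the groups overlapped. The log2 fold change was 1.68 ± 0.79 (SE; unadjusted p = 0.0564, limma adjusted p = 0.537), and it stayed between 1.21 and 2.22 over 16 alternatives, with adjusted p of 0.175 to 0.910. This direction was not shared by Rgs5 and Abcc9, whereas Anpep, given below, had a larger log2 fold change of 2.63. Rgs5, a regulator of G protein signalling enriched in pericytes, had 127, 232 and 108 normalized counts in CNO 1 to CNO 3, against 204, 246 and 1303 in saline 3 to saline 5. Its groups overlapped, with a log2 fold change of -1.45 (95% interval -3.88 to 0.98, limma adjusted p = 0.655).

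Abcc9 and Kcnj8 encode the regulatory and the pore subunit of a potassium channel of pericytes. Abcc9 had 0, 74.7 and 179 normalized counts in CNO 1 to CNO 3, against 50.5, 147 and 137 in saline 3 to saline 5, which overlapped. Kcnj8 had 0 reads in all CNO libraries, against 0, 12 and 0 reads in the saline libraries, and was too low to be tested. Its group means lay at or under the floor, so no fold is given. Higd1b, a pericyte-enriched gene, had at most 2 reads in a CNO library and at most 4 in a saline library.

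Notch3, a receptor that arterial smooth muscle needs, had 0 reads in all 3 CNO libraries, against 498, 5.60 and 10.6 normalized counts in saline 3 to saline 5. The groups did not overlap, and the saline mean came mostly from saline 3, where Notch3 had 879 reads. By the floor of 3 reads, 0 reads in CNO 1 could still hold up to 12.7 normalized counts. That is above the values in saline 4 and saline 5. Against the floor of 3 reads per library, which averaged 5.94 normalized counts in CNO, Notch3 was at least 28.9-fold lower in CNO, and at least 1.36-fold lower without saline 3. The unadjusted p was 0.0265 and the limma adjusted p 0.492, with adjusted p of 0.262 to 0.826 over 13 alternatives. Des, the muscle intermediate filament desmin, also had 0 reads in all CNO libraries, against 68.0, 0 and 12.1 normalized counts in saline 3 to saline 5, which is at least 4.50-fold lower in CNO and at least 1.02-fold lower without saline 3. Saline 4 had 0 reads of Des too, so the groups touched at 0.

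The contractile genes did not move as one. Acta2, smooth muscle actin, had 4.23, 5.18 and 277 normalized counts in CNO 1 to CNO 3, against 3.40, 48.8 and 95.1 in saline 3 to saline 5. Myh11, the smooth muscle myosin heavy chain, was likewise highest in CNO 3, at 216 normalized counts, and had at most 49.9 in a saline library. Tagln, the actin-binding protein SM22, had 0 reads in all CNO libraries, against 28, 1 and 14 reads in saline 3 to saline 5. CNO 3 thus held 286 reads of Acta2, 223 of Myh11 and 0 of Tagln. Tagln was too low to be tested. Its libraries did not overlap, but the 1 read in saline 4 lay under the floor of 3 reads. Tagln was at least 1.33-fold lower in CNO against the floor, although without saline 3 the saline mean lay under that floor.

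Anpep, the surface peptidase CD13, showed the widest range of the mural markers, with 4.23, 40.0 and 3331 normalized counts in CNO 1 to CNO 3, against 31.7, 29.6 and 2.01 in saline 3 to saline 5. The CNO 3 value rests on 3434 reads and the CNO 1 value on 1. The ratio of means was 53.3, and it was 1.05 without CNO 3. On the log2 scale the difference was 2.63 (95% interval -2.88 to 8.14, limma adjusted p = 0.701). CD13 is also carried by myeloid cells, and the 10 markers of border-associated macrophages took 0.391%, 0.371% and 0.615% of reads in CNO 1 to CNO 3, against 0.284%, 0.459% and 0.327% in saline 3 to saline 5. Their part in the Anpep values was not tested.

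Among the fibroblast markers Igf2 was the most abundant and had the narrowest interval of the 29 tested markers. Igf2, an imprinted growth factor made by the leptomeninges and the choroid plexus, had 2451, 1728 and 2063 normalized counts in CNO 1 to CNO 3, against 970, 2229 and 3107 in saline 3 to saline 5. All 3 CNO libraries lay within the saline range. The log2 fold change was 0.13 (95% interval -1.11 to 1.37, limma adjusted p = 0.943). Per kilobase of exon, the mean level of Igf2 was 364 normalized counts in CNO and 367 in saline, the highest of the 32 markers in both groups. In saline the next were Ly6c1 at 163 and Rgs5 at 129 normalized counts per kilobase, and in CNO they were Anpep at 272 and Pdgfrb at 250. Markers of the ependyma and choroid plexus took 0.0170%, 0.00386% and 0.000602% of reads in CNO 1 to CNO 3. In saline 3 to saline 5 they took 0.00233%, 0.00664% and 0.0324%. Among these markers Ttr had 611, 718 and 103 reads in CNO 1 to CNO 3, against 314, 122 and 6117 in saline 3 to saline 5. The part of these markers in the Igf2 values was not tested.

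Pdgfra, the PDGF receptor alpha of fibroblasts, had 144, 855 and 1683 normalized counts in CNO 1 to CNO 3, against 679, 204 and 692 in saline 3 to saline 5. It overlapped between groups, with a log2 fold change of 0.37 (95% interval -1.87 to 2.61, limma adjusted p = 0.899). Pdgfra also marks oligodendrocyte precursors, and the list of 12 precursor markers, which includes it, took 0.0412%, 0.0440% and 0.0965% of reads in CNO 1 to CNO 3, against 0.0636%, 0.0365% and 0.0722% in saline 3 to saline 5. The source of the Pdgfra reads was not tested.

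Col1a1 and Col1a2 encode the chains of 1 protein, type I collagen, and took opposite orders over the CNO libraries. Col1a1 had 8.45, 46.6 and 3206 normalized counts in CNO 1 to CNO 3, against 41.4, 203 and 80.5 in saline 3 to saline 5. Col1a2 had 410, 335 and 4.85 normalized counts in CNO 1 to CNO 3, against 104, 216 and 360 in saline 3 to saline 5. CNO 3 was thus the highest library for Col1a1, with 3305 reads, and the lowest for Col1a2, with 5 reads. Both genes overlapped between groups, with log2 fold changes of 0.35 and -1.12 and limma adjusted p of 0.960 and 0.806. Without CNO 3 the ratio of means of Col1a1 was 0.255, against 10.1 with it.

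Col3a1, the chain of type III collagen, had 287, 0 and 24.3 normalized counts in CNO 1 to CNO 3, against 1.70, 239 and 194 in saline 3 to saline 5. Dcn, the collagen-binding proteoglycan decorin, had 186, 206 and 0.970 normalized counts in CNO 1 to CNO 3, against 275, 54.4 and 254 in saline 3 to saline 5. Both overlapped, and Dcn and Col1a2 shared the low value in CNO 3. The other fibroblast markers were Lum and Ogn, proteoglycans related to decorin, and Slc6a13, a GABA transporter of the meninges. They had 0 to 561 normalized counts in CNO libraries and 0 to 142 in saline libraries, and all overlapped. Ogn and Slc6a13 were highest in CNO 3, where Lum had 0 reads.

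**Figure D2:**
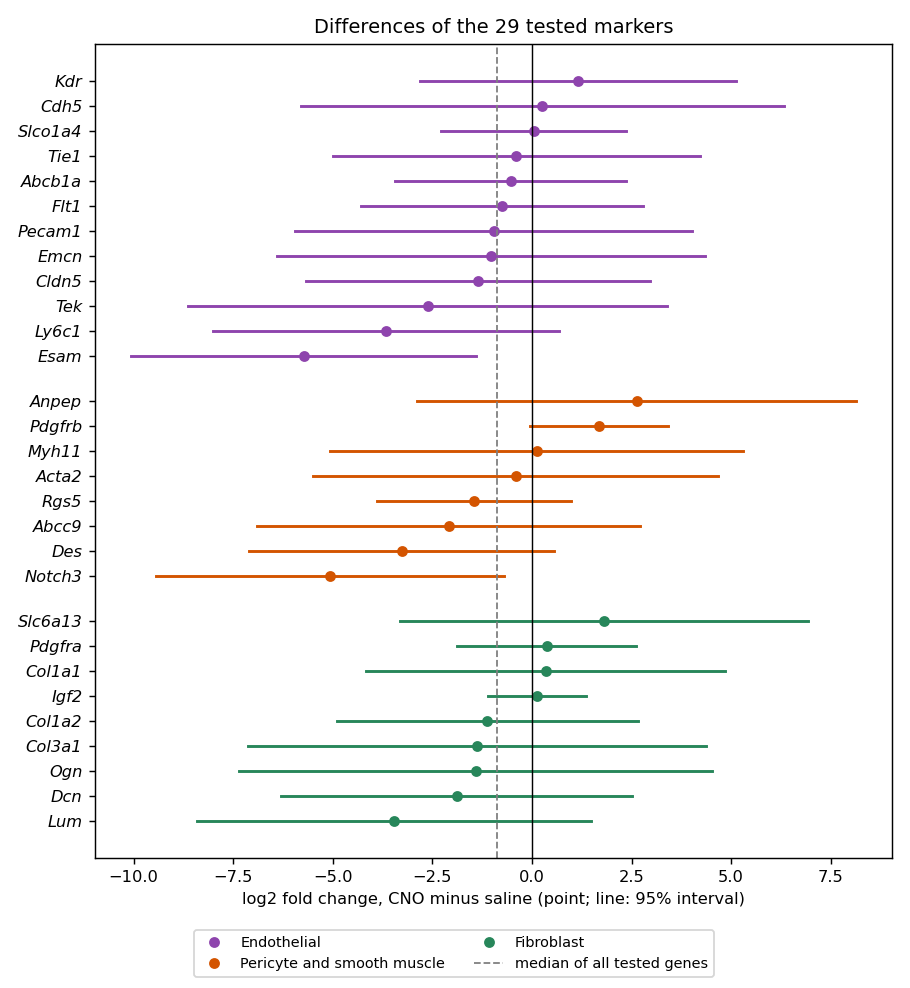
Log2 fold change, CNO minus saline, of the 29 tested markers by marker group (points) with 95% intervals from limma (lines); the dashed line is the median of all tested genes, -0.89. The intervals of Esam and Notch3 lie below 0, the other 27 hold 0, and no marker passed the adjusted threshold.

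Summed over each group, the CNO and saline libraries overlapped in their shares of reads. The endothelial markers took 0.0134%, 0.00395% and 0.0437% of reads in CNO 1 to CNO 3, against 0.00985%, 0.0233% and 0.0274% in saline 3 to saline 5, which is 0.0204% ± 0.0208 and 0.0202% ± 0.00919 (SD, n = 3 each). The mural markers took 0.0145%, 0.00660% and 0.0326% in CNO, against 0.0151%, 0.00915% and 0.0188% in saline. The fibroblast markers took 0.0212%, 0.0225% and 0.0470% in CNO, against 0.0221%, 0.0337% and 0.0507% in saline. CNO 3 was the highest CNO library in each group. Without it the ratio of CNO to saline means was 0.428 in place of 1.01 for the endothelial, 0.735 in place of 1.25 for the mural and 0.615 in place of 0.852 for the fibroblast markers. As sums of normalized counts, which also overlapped, the same ratios were 1.72 for the endothelial, 2.09 for the mural and 1.41 for the fibroblast markers, so that whether the CNO mean was near or above the saline mean depended on the measure. All 32 markers together made up 0.0685% ± 0.0482 of CNO reads and 0.0700% ± 0.0251 of saline reads.

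**Figure D3:**
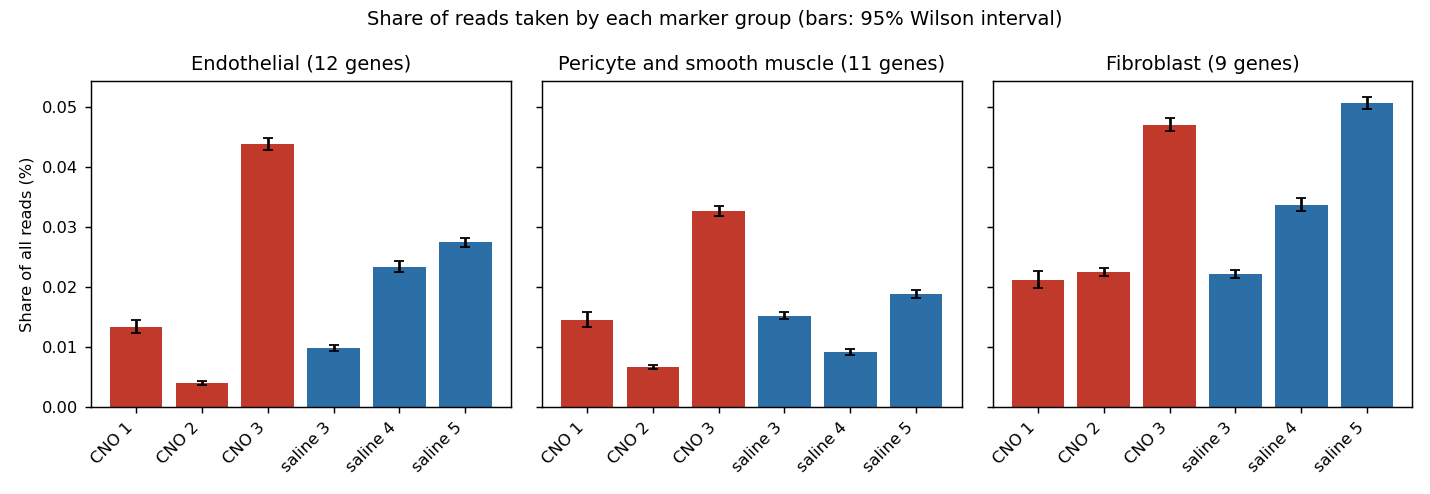
Share of all reads, in percent, taken by the 12 endothelial, 11 pericyte and smooth muscle and 9 fibroblast markers in each library, with CNO in red left of saline in blue and 95% Wilson intervals that cover counting error only. CNO 3 is the highest CNO library in each panel, and the groups overlap in all 3.

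The endothelial markers varied most among the CNO libraries, where the highest share was 11.1 times the lowest, against 2.78 times in saline. For the mural markers these ratios were 4.93 in CNO and 2.05 in saline, and for the fibroblast markers 2.22 in CNO and 2.29 in saline. The genes that supplied the reads also differed between CNO libraries. Slco1a4 gave 52.5% of the endothelial reads in CNO 1, Abcb1a 30.8% in CNO 2 and Flt1 53.7% in CNO 3, whereas Slco1a4 led in all 3 saline libraries, with 28.1%, 28.4% and 23.7%. Pdgfrb gave 94.4% of the mural reads in CNO 1 and 59.5% in CNO 2, and Anpep gave 61.7% in CNO 3, while Pdgfrb led in saline 3 and saline 4 and Rgs5, with 72.4%, in saline 5. Igf2 led the fibroblast markers in 5 libraries, and Col1a1 led in CNO 3 with 41.1%.

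**Figure D4:**
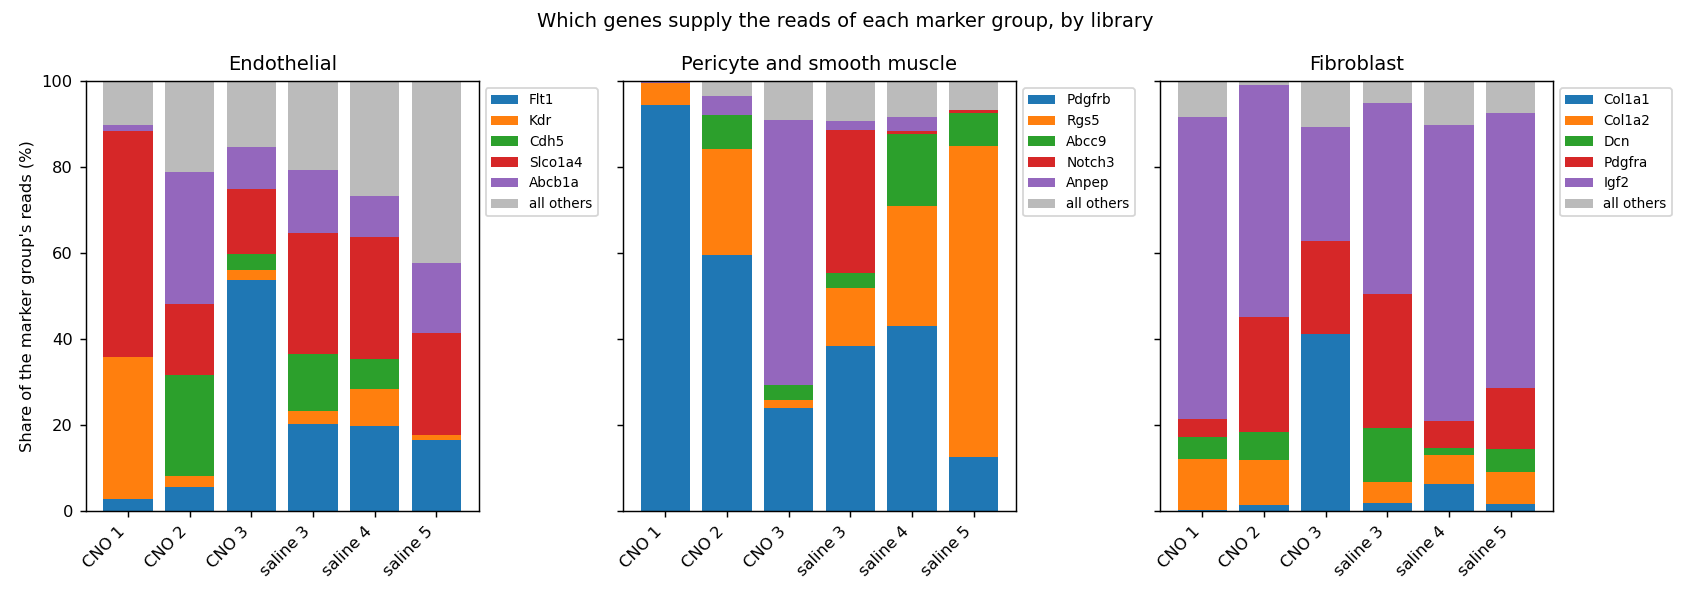
Share of each marker group's reads, in percent, supplied by its 5 leading genes and by all its other genes, in each library, CNO left of saline. The endothelial reads are led by Slco1a4 in CNO 1, Abcb1a in CNO 2 and Flt1 in CNO 3, and by Slco1a4 in all saline libraries.

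CNO 3 was the library with the highest level for 13 of the 32 markers, which were 5 endothelial, 4 mural and 4 fibroblast. These 13 were all tested and made up 44.8% of the tested markers, against 20.9% of all tested genes that were highest in CNO 3. Because a few high values raise a mean more than a mean of logs, the ratio of means was above 1 for 18 of the 29 tested markers while the log2 fold change was below 0 for 19, and the direction differed for 10 of them. A log2 fold change below 0 was found for 65.5% of tested markers and 68.3% of all tested genes.

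Fewer of the markers were detected in CNO libraries. At least 1 read was found for 18, 22 and 25 of the 32 markers in CNO 1 to CNO 3, against 30, 29 and 30 in saline 3 to saline 5, and the groups did not overlap. Thinned to the 3908076 reads of CNO 1, the expected numbers were 18, 20.2 and 23.0 in CNO, against 28.1, 28.0 and 27.9 in saline. By group, 4, 7 and 6 of the 11 mural markers were detected in CNO, against 9, 9 and 10 in saline, while the endothelial counts overlapped at 11 and the fibroblast counts at 8. At equal depth the expected numbers did not overlap in any of the 3 groups, with 4 to 6.16 mural markers in CNO and 8.25 to 9.05 in saline, 7 to 10.02 endothelial markers in CNO and 10.20 to 11.96 in saline, and 6 to 7 fibroblast markers in CNO and 7.79 to 8.68 in saline. Detection over the whole table was separated too. There, 8618, 12820 and 10883 genes had a read in CNO 1 to CNO 3, against 14311, 14491 and 14141 in saline 3 to saline 5. These counts of all genes were not thinned to equal depth. Of the 32 markers, 17 had 0 reads in at least 1 CNO library and 5 in at least 1 saline library. Zeros were more frequent in CNO libraries over other genes of similar level as well. Of the 4380 other tested genes with means of 10 to 100 normalized counts, 72.1%, 23.4% and 49.2% were at 0 in CNO 1 to CNO 3, against 10.3%, 9.34% and 10.5% in saline 3 to saline 5, and of the 12 markers in that range 66.7%, 41.7% and 33.3% were at 0 in CNO, against 0%, 16.7% and 0% in saline.

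The spread between libraries of 1 group was also wider in CNO. The SD of the log2 level was larger in CNO for 25 of the 29 tested markers, or 86.2%, against 80.6% of all tested genes. For the 16 markers with means of 100 to 1000 normalized counts the median SD was 3.60 in CNO and 1.39 in saline, and for the 6381 other genes in that range it was 2.33 in CNO and 0.73 in saline. Igf2 was an exception, with an SD of 0.25 in CNO and 0.86 in saline.

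**Figure D5:**
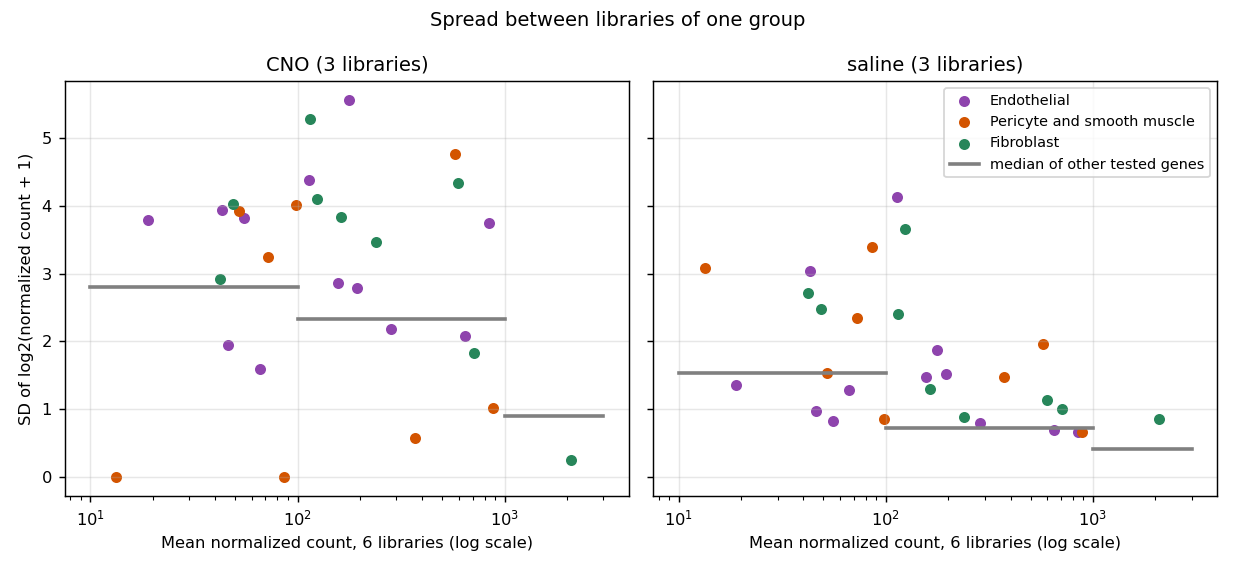
SD of log2(normalized count + 1) over the 3 CNO libraries (left) and the 3 saline libraries (right) against the mean normalized count on a log scale, for the 29 tested markers; grey lines are the medians of the other tested genes in 3 ranges of level. In the range of 100 to 1000 the marker median is 3.60 in CNO and 1.39 in saline, and the points at 0 in the CNO panel are Notch3 and Des, which had 0 reads in that group.

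Wider lists of genes of the same cell types gave 0 calls by limma, edgeR and DESeq2 too. DESeq2 gave no adjusted p for some of these genes, among them Foxq1 and Mcam. Their medians, like those of the markers, differed between limma and DESeq2, so the DESeq2 value is given with each, to be read beside its median of 0.0044 for all tested genes. The limma values are to be read beside a median of -0.89 for all tested genes, of which 68.3% lay below 0. Of the other endothelial genes 29 of 34 were tested, with a median log2 fold change of -1.81 (-0.98 with DESeq2), 6 above 0 and 23 below. They took 0.0811%, 0.0711% and 0.115% of reads in CNO 1 to CNO 3, against 0.126%, 0.135% and 0.134% in saline 3 to saline 5. These shares did not overlap. The same reads as sums of normalized counts did overlap, so the separation depended on the measure. Examples with the smallest p were Foxq1, a transcription factor, with 0 reads in CNO and 11.9, 36.8 and 52.3 normalized counts in saline, and Ocln, the tight junction protein occludin, with 0, 4.44 and 0 normalized counts in CNO, against 35.7, 138 and 24.7 in saline (limma adjusted p = 0.488 and 0.491). Slc7a5, the large neutral amino acid transporter, had 63.4, 25.9 and 0.970 normalized counts in CNO, against 468, 215 and 340 in saline (limma adjusted p = 0.496).

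Of 15 other pericyte genes 12 were tested, with a median of -2.14 (-0.59 with DESeq2). Mcam, the adhesion protein CD146, had 0 reads in CNO and 20.98, 26.4 and 34.7 normalized counts in saline (limma adjusted p = 0.488). Of 15 other contractile genes 11 were tested, with a median of -2.08 (-1.80 with DESeq2), and their share of reads was 0.00361%, 0.0102% and 0.00484% in CNO 1 to CNO 3, against 0.0160%, 0.0217% and 0.0140% in saline 3 to saline 5. The shares again did not overlap, but as sums of normalized counts the groups overlapped, with CNO 2 above saline 5. Within that list Synpo2, an actin-binding protein, ran the other way, with 549, 300.4 and 191 normalized counts in CNO, against 52.7, 32.02 and 7.05 in saline (limma adjusted p = 0.5). Srf, the factor that drives many contractile genes, had 0, 11.8 and 0 normalized counts in CNO, against 107, 49.6 and 114 in saline (limma adjusted p = 0.491).

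Of 30 other fibroblast and leptomeningeal genes 15 were tested, with a median of -1.67 (-0.21 with DESeq2), and 5 had 0 reads in all 6 libraries. Of 14 arterial and venous genes 9 were tested, with a median of -0.76 (0.73 with DESeq2). Of 39 ligands and receptors of vessel signalling 35 were tested, with a median of -0.34 (0.21 with DESeq2), 14 above 0 and 21 below. Among those, Igf2r, the receptor that clears Igf2, had 16.9, 26.6 and 0.970 normalized counts in CNO 1 to CNO 3, against 159, 98.5 and 257 in saline 3 to saline 5, without overlap (limma adjusted p = 0.543), while Igf2 itself lay within the saline range. Notch1 had 245, 487 and 81.5 normalized counts in CNO, against 846, 1360 and 866 in saline (limma adjusted p = 0.496).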

How the data were processed

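RNA from 3 CNO and 3 saline libraries was measured by RNA-seq, from 10 ng of total RNA per library per the labels' protocols. The authors deposited 1 table with a signal for each gene and library: a read count scaled by the library's size factor. Its 6 columns matched the samples by name, with 0 columns over. The submitters' processing notes list mm10 as the build and name STAR 2.5.0a, Trimmomatic 0.4, DESeq2 1.20.0, FastQC 0.10.1 and MultiQC 0.9 without saying what each did. How reads were counted, on which annotation and with or without strand, is not given in the sources used, and reads of overlapping genes may have been shared.

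Whole reads were recovered from the step between values, and 100% of values in each library came out whole within 1e-06 reads. The main test was limma 3.58.1 in R 4.3.3 with a mean-variance trend, 2-sided, on log2(value + 1). Fold changes of low genes depend on the value added, and they can be smaller or larger than the ratio of means. The median log2 fold change of all tested genes was -0.89 with 1 added, -0.97 with 0.5 added and -0.55 with 8 added. The filter was a mean of at least 10 normalized counts over the 6 libraries. edgeR 4.0.16 and DESeq2 1.42.0 on the recovered reads, and limma-voom, were alternatives; called over all genes at 0.05, limma gave 2, edgeR 0 and DESeq2 249. The limma script was tested on simulated data with the same spread setting in both groups. That test does not cover the wider spread of the CNO libraries. Lengths are merged exons of GENCODE M21 on GRCm38, the assembly of mm10, and promoters are from RefSeq GRCm38.p6.

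The markers and lists were chosen with earlier results of these data known. Values in every library are given for the 6 most abundant markers of each group, for any marker without overlap and for any at 0 in a whole group; Tie1 was added to complete the receptors, and other single values were chosen after they were seen. Each other list is shown by counts and up to 4 genes of smallest p.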

Additional observations from a re-analysis of the deposited data

How the results depend on the processing

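Under every alternative run, 0 of the tested markers were called. The number of genes called over the whole table, 2 by limma, was 0 with a filter on a mean of at least 50, with a read required in every library, with quantile scaling and with edgeR, 16 with limma-voom and 249 with DESeq2, and 0 to 2 with each library left out. From summed normalized counts in place of shares of reads, the ratio of CNO to saline was 1.72 in place of 1.01 for the endothelial, 2.09 in place of 1.25 for the mural and 1.41 in place of 0.852 for the fibroblast markers. The median log2 fold change of all genes was -0.89, and it was -0.93 with TMM scaling, -0.08 with quantile scaling, -0.11 with edgeR, 0.0044 with DESeq2 and -0.09 with a read required in every library, and the causes were not tested. Log2 fold changes kept their sign in every alternative run for Esam, Ly6c1, Pdgfrb, Rgs5, Notch3, Des, Anpep, Lum and Slc6a13, but Notch3 and Des gave no value without saline 3, nor Slc6a13 without CNO 3, since each then missed the filter. The ratio of means of Slc6a13 was 9.91, and 0.473 without CNO 3. The log2 fold change of Anpep was 2.63, and 0.017 without CNO 3. Esam, Notch3, Des, Lum and Slc6a13 also gave no value with a read required in every library, nor Des, Lum and Slc6a13 with a mean of at least 50.

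Sign changes were as follows. With quantile scaling the values were 1.13 for Cldn5, 1.26 for Pecam1, 2.24 for Tie1, 1.30 for Emcn, -0.43 for Slco1a4, 0.14 for Abcb1a, 1.95 for Acta2, -0.47 for Igf2 and 1.05 for Ogn. With edgeR they were 0.36 for Pecam1, 1.83 for Flt1, 1.52 for Tek, 2.17 for Tie1, 0.31 for Emcn, 0.17 for Abcb1a, 0.90 for Acta2, -0.14 for Igf2 and 2.11 for Ogn. With DESeq2 they were 0.53 for Pecam1, 1.89 for Flt1, 1.57 for Tek, 2.23 for Tie1, 0.35 for Emcn, 0.24 for Abcb1a, 0.97 for Acta2, 0.14 for Col1a2, -0.013 for Igf2 and 2.16 for Ogn. Slco1a4 was -0.083 with TMM scaling and -0.58 with limma-voom, Igf2 was -0.049 with limma-voom, Tie1 was 0.42 with a pseudocount of 8 and Myh11 was -0.17 with a pseudocount of 0.5. With 1 library left out, the ranges were -2.18 to 1.24 for Pecam1, -2.89 to 0.57 for Flt1, -0.10 to 2.67 for Kdr, -2.12 to 2.78 for Cdh5, -1.14 to 0.70 for Tie1, -3.29 to 0.46 for Emcn, -0.58 to 1.24 for Slco1a4, -1.60 to 0.58 for Abcb1a, -3.55 to 0.20 for Abcc9, -2.28 to 0.59 for Acta2, -1.68 to 2.21 for Myh11, -2.07 to 2.14 for Col1a1, -2.19 to 0.88 for Col1a2, -3.48 to 0.77 for Col3a1, -3.04 to 0.32 for Dcn, -0.38 to 1.39 for Pdgfra, -0.35 to 0.49 for Igf2 and -4.46 to 0.11 for Ogn. No paired analysis was possible because the groups share only replicate number 3. The depth of CNO 1 limits what can be detected there.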
